A study of Mus musculus with 2 samples.

Results

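The nuclear genes of the mitochondrial respiratory chain were examined in nuclei of mouse hindbrain neurons. Members were all rows of the count tables whose symbol begins with Ndufa, Ndufb, Ndufc, Ndufs, Ndufv, Sdh, Uqcr, Atp5, or Cox followed by a digit of 4 to 8, with at least 20 UMIs over both libraries. The rule matched 97 of 23912 rows, and 92 of these reached the limit. Complex I had 45 members, complex II 8, complex III 8, complex IV 14 and complex V 17. Of the 92, 79 encode structural subunits and 13 encode assembly or supercomplex factors. The lowest member just inside the limit was Cox7a1 with 21 UMIs, and the highest row just outside it was Cox4i2 with 18. Also left out were Cox6b2 with 12 UMIs, Cox8b with 11, Ndufa4l2 with 7 and Cox6a2 with 1.

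A library of sorted nuclei from mice of the group labelled SNI with brush was compared with a library from mice of the group labelled hot water bath. Both used mice of the TRAP2 strain aged 8 to 12 weeks, which received the retrograde virus AAV-retro-H2B-GFP in the lumbar spinal cord, so that nuclei of neurons projecting there carry a fluorescent histone. Per the series text, hindbrain neurons that descend to the cord and had been activated by a type of pain were collected by flow sorting. Hindbrains of each treatment were pooled into 1 library, made with the 10x 3' version 3 kit from nuclear RNA. With 1 library per treatment there is no replicate and no test: every ratio compares these libraries, and the intervals are exact 95% intervals that cover counting error only.

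The respiratory chain moves electrons from NADH through complex I, or from succinate through complex II, to complex III and complex IV, where oxygen is reduced. Complexes I, III and IV pump protons across the inner mitochondrial membrane, and complex V, the ATP synthase, uses the gradient to make ATP. Most subunits are encoded in the nucleus, complex II entirely so, whereas a few catalytic subunits of the other complexes are transcribed inside mitochondria from the mt- genes. Neurons depend on this pathway for the ATP that keeps up ion gradients and synaptic release.

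In the SNI with brush library 271 neurons remained after 15 nuclei rich in liver genes and 2 doublets were left out, and in the hot water bath library 422 remained after 3 doublets. Their medians were 33238 and 36886 UMIs. The 8 neuron markers summed to 20524 CPM (UMIs per 1000000) and 19994 CPM and were seen in every nucleus of both. Markers of other cells were also present: 3 choroid plexus markers summed to 238 CPM against 10.1 CPM, 4 oligodendrocyte markers to 159 CPM against 70.2 CPM, 8 liver markers to 50.6 CPM against 0.248 CPM, and 3 microglia markers to 73.4 CPM against 74.5 CPM. A choroid plexus UMI was found in 269 of 271 SNI with brush neurons and in 122 of 422 hot water bath neurons, and the part of such RNA in the ratios was not tested. The mt- genes took 0.493% of UMIs in SNI with brush neurons and 0.149% in hot water bath neurons.

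Respiratory chain genes as a group had higher levels in SNI with brush neurons. Summed over all neurons they reached 8081 CPM (8027 to 8134) in SNI with brush and 3186 CPM (3159 to 3214) in hot water bath. At least 1.5-fold higher in SNI with brush were 80 of the 92 members, beside 30.4% of the 17587 genes tested. None was 1.5-fold lower, beside 8.31% of genes. With SNI with brush divided by hot water bath, the median log2 ratio was 1.44 over members and 0.23 over all genes tested. Subunits had a median of 1.59 and assembly or supercomplex factors 0.52. The factors ran from -0.15 to 1.51, so their values overlapped those of subunits. In sums over nuclei, fewer cells of a type and less RNA per cell cannot be told apart.

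The difference was also seen nucleus by nucleus, which describes the libraries and adds no replicates. The median SNI with brush neuron carried 7954 CPM of members, with a range of 2234 to 34307, against a median of 3028 CPM and a range of 1429 to 18133 in hot water bath neurons. The lower quartile of SNI with brush nuclei, 6010 CPM, lay above the upper quartile of hot water bath nuclei, 3604 CPM. The ranges overlapped. These sums rest on a median of 262 member UMIs per SNI with brush nucleus and 109 per hot water bath nucleus.

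**Figure D1:**
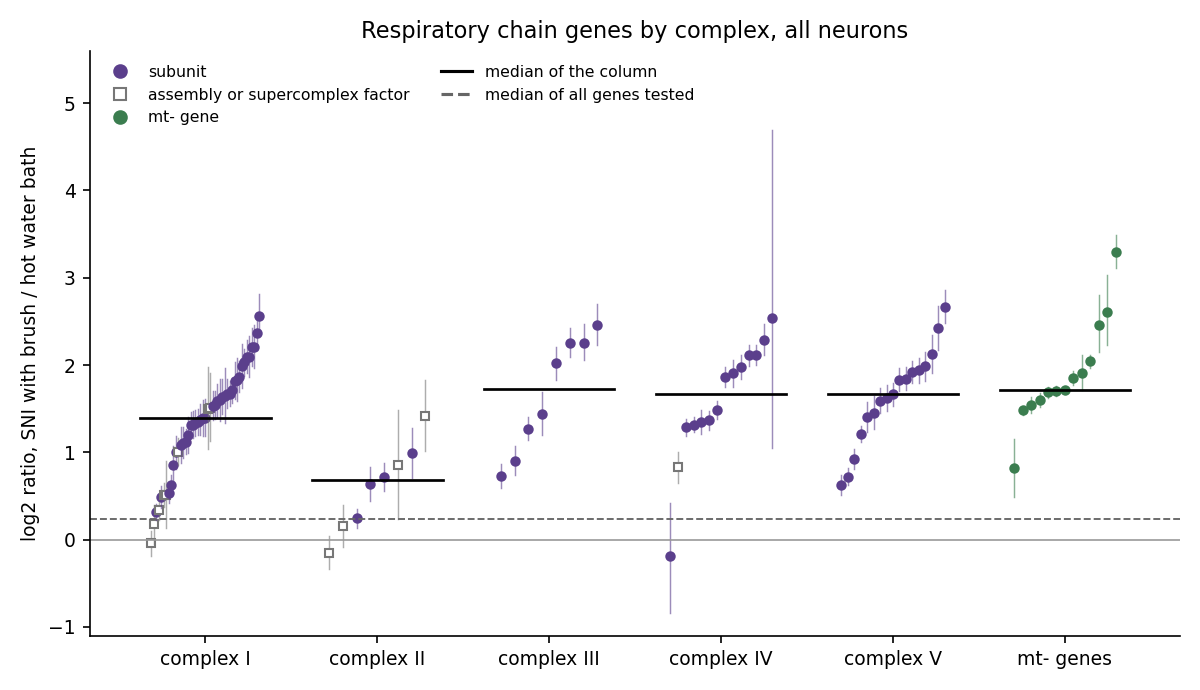
Log2 ratio, SNI with brush divided by hot water bath, for each member, sorted within its complex, and for the 13 mt- genes; bars are exact 95% intervals for counting error, black lines column medians, and the dashed line the median of all genes tested (0.23). Complex II has the lowest median (0.68), and most open squares (assembly or supercomplex factors) lie in the lower part of their column.

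Complex I, the NADH dehydrogenase, had a median log2 ratio of 1.40 over its 45 members, and its parts differed. The 7 core subunits, which form the catalytic peripheral arm, had a median of 1.11 and summed to 448 CPM against 241 CPM. The 30 accessory subunits had a median of 1.62, with sums of 2275 CPM against 837 CPM. The 8 assembly factors had a median of 0.51. Among core subunits, Ndufs1, which holds several iron-sulfur clusters, had 98.3 CPM in SNI with brush and 67.6 CPM in hot water bath, a log2 ratio of 0.54 (0.42 to 0.66). Ndufv2, a subunit of the NADH-binding module, had 106 CPM against 68.9 CPM and a ratio of 0.62. Ndufs3, Ndufv1 and Ndufs7 stood at 1.11, 1.20 and 1.37. Ndufs8, which binds iron-sulfur clusters near the quinone site, had the highest core ratio, 1.64 (1.34 to 1.96), from 25.2 CPM against 8.05 CPM.

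Small accessory subunits headed complex I. Ndufa3, a small membrane-arm subunit (chr7:3617373-3620327, mm10), had 62.0 CPM in SNI with brush and 10.5 CPM in hot water bath, a log2 ratio of 2.56 (2.32 to 2.82). Ndufa5, of the peripheral arm, had 90.6 CPM against 17.6 CPM and a ratio of 2.36. Ndufa1, an X-linked membrane-arm subunit, had 53.5 CPM against 11.6 CPM and a ratio of 2.21. At the other end stood Ndufs4, an accessory subunit whose loss causes Leigh-like disease in mice and whose gene spans 100.5 kb (chr13:114287795-114388258, mm10). It had 155 CPM against 124 CPM, a log2 ratio of 0.32 (0.22 to 0.41). Of the assembly factors, Ndufaf5 had 58.7 CPM against 60.5 CPM and Ndufaf6 27.6 CPM against 24.4 CPM, and both intervals held 0.

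Complex II, succinate dehydrogenase, showed the smallest difference of the 5 complexes, with a median log2 ratio of 0.68 and sums of 317 CPM against 240 CPM. Sdha, the flavoprotein that oxidises succinate (chr13:74322254-74350280, mm10), had 116 CPM in SNI with brush and 97.7 CPM in hot water bath, a ratio of 0.24 (0.14 to 0.35), close to the median of all genes. Sdhb, the iron-sulfur subunit, had 63.0 CPM against 38.2 CPM and a ratio of 0.72. The membrane anchors Sdhc and Sdhd stood at 0.64 and 0.99. The assembly factors ranged from -0.15 (-0.34 to 0.04) for Sdhaf3, with 35.2 CPM against 39.0 CPM, and 0.16 for Sdhaf2, to 1.41 for Sdhaf4, with 13.4 CPM against 5.01 CPM.

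All 8 members of complex III, the cytochrome bc1 complex, were at least 1.5-fold higher in SNI with brush, with a median of 1.73. The large core proteins had the low values: Uqcrc2 had 82.6 CPM against 49.8 CPM, a log2 ratio of 0.73, and Uqcrc1 62.0 CPM against 33.1 CPM, a ratio of 0.91. Uqcrh, the hinge protein, and Uqcrfs1, the Rieske iron-sulfur protein, stood at 1.27 and 1.44. Genes of 3 small subunits were highest, Uqcr11 with 66.3 CPM against 12.1 CPM (2.46, 2.23 to 2.69), Uqcr10 at 2.26 and Uqcrq at 2.25.

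Complex IV, cytochrome c oxidase, had a median of 1.67, and 1.86 over its 13 subunits. Cox4i1, the largest nuclear subunit, had 281 CPM in SNI with brush and 113 CPM in hot water bath, a log2 ratio of 1.31 (1.23 to 1.40). Cox5a had 194 CPM against 79.8 CPM and a ratio of 1.29, while Cox5b, the zinc-binding subunit, had 110 CPM against 22.4 CPM and a ratio of 2.29. Cox6c and Ndufa4 both had 2.11; Ndufa4 is named for complex I but is a subunit of complex IV and is counted here. Cox7a2l, which joins complexes III and IV into supercomplexes, had the lowest ratio among genes with at least 100 UMIs, 0.83, from 53.8 CPM against 30.3 CPM. Below it was Cox7b2, a paralog known from testis, with 35 UMIs against 60 and a ratio of -0.19 (-0.85 to 0.42), a gene chosen after its values were seen. It was the only subunit of the 79 with a ratio below 0.

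Complex V, the ATP synthase, had a median of 1.66, and all 17 members were at least 1.5-fold higher in SNI with brush. The 5 genes of the alpha, beta, gamma, delta and epsilon chains had a median of 1.21, and the other 12 genes had 1.84. Among the 5, Atp5a1 and Atp5b, the alpha and beta chains, had 168 CPM against 102 CPM (0.72) and 210 CPM against 91.0 CPM (1.21). Atp5c1, the gamma chain, had 112 CPM against 72.5 CPM (0.63, 0.51 to 0.74). Atp5e, the small epsilon chain, had 57.1 CPM against 10.6 CPM (2.42). The stalk subunit Atp5f1 stood at 0.93. The highest ratio of all members was that of Atp5k, the small membrane subunit e (chr5:108433244-108434448, mm10, a gene of 1.21 kb), with 111 CPM in SNI with brush and 17.4 CPM in hot water bath, a log2 ratio of 2.66 (2.48 to 2.86). Atp5mpl, another small membrane protein of the complex, stood at 2.12.

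Paralog pairs mostly kept to their common form in both libraries. Cox4i1 gave 99.6% of Cox4i UMIs in SNI with brush and 99.7% in hot water bath, Cox6a1 99.9% and 100%, Cox6b1 99.5% and 99.4%, and Cox8a 99.8% and 99.4%. In 3 sets the intervals of a share did not overlap between the libraries. Cox7b2 held 1.82% (1.27 to 2.52) of Cox7b and Cox7b2 UMIs in SNI with brush, against 5.22% (4.00 to 6.67) in hot water bath. Cox7a2 held 66.1% (63.8 to 68.3) of the UMIs of Cox7a1, Cox7a2 and Cox7a2l in SNI with brush, against 48.5% (45.3 to 51.8) in hot water bath. Cox7a1, the form of heart and skeletal muscle, had 17 UMIs against 4, a ratio of 2.54 whose interval runs from 1.05 to 4.70. The 3 genes of the identical c-ring subunit were closer: Atp5g3 held 44.1% against 40.6%, Atp5g1 40.2% against 39.4% and Atp5g2 15.7% (14.6 to 16.8) against an interval of 18.1 to 22.0%. These are shares of UMIs and not per gene length.

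Promoters of members were read from the RefSeq table (GRCm38.p6), in which 77 of the 92 have a window. Nuclear respiratory factor 1 and GABPA, an ETS factor, are textbook regulators of respiratory genes, so their core letters, GCGCATGC and CCGGAAGT, were searched on both strands in the 250 bases before each start. GCGCATGC can overlap its own reverse complement, so 1 site can match on both strands. The NRF1 core was present in 9 of 77 members (11.7%), beside 4.31% of 11207 tested genes and 2.32% of all 27025 genes with a window. CCGGAAGT was in 3 of 77 (3.90%), beside 5.57% of tested genes. GGGCGG, an SP1 core, was in 42.9%, beside 57.2%, and the YY1 core AAGATGGC was in none, beside 1.85%. Members with an NRF1 match had a median log2 ratio of 1.45 (n = 9, from 0.72 to 2.66). Those without had 1.49 (n = 68, from -0.19 to 2.56). For the ETS core the medians were 1.84 with a match (n = 3) and 1.47 without (n = 74). For the SP1 core they were 1.33 with a match (n = 33) and 1.61 without (n = 44). The stretches below hold the last 120 bases before the gene's own outermost annotated start, on its strand. They are given for 4 of the members with a match in that stretch, shown because they span ratios from 1.01 to 2.46. Whether transcripts of other genes cross these stretches was not checked. Ndufa11 and Ndufa6 encode accessory subunits of complex I (chr17:56717642-56717761, plus strand, ratio 2.10, and chr15:82354323-82354442, minus strand, ratio 1.59). Ndufaf4 encodes an assembly factor of complex I (chr4:24897963-24898082, plus strand, ratio 1.01), and Uqcr11, with the ETS core, a subunit of complex III (chr10:80406831-80406950, minus strand, ratio 2.46). Capitals mark the match, and overlapping NRF1 matches are capitalised as 1 run.
Ndufa11: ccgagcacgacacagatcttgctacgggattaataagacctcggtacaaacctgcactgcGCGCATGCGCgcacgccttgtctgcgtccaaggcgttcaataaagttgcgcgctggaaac
Ndufa6: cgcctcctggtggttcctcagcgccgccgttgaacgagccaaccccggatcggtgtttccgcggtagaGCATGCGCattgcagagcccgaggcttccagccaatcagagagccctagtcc
Ndufaf4: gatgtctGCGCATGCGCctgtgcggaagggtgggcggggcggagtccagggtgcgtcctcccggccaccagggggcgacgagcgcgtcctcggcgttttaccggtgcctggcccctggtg
Uqcr11: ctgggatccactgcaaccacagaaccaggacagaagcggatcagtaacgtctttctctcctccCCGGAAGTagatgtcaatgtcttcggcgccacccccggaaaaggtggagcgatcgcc
A match is a description of letters, and no binding was measured here.

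The 13 protein genes of the mitochondrial genome differed between the libraries in the same direction as their nuclear partners. Together they had 4931 CPM in SNI with brush and 1488 CPM in hot water bath, and the median log2 ratio was 1.71. Medians by complex were 1.85 for the 7 complex I genes, 1.70 for the 3 cytochrome c oxidase genes and 2.04 for mt-Cytb of complex III. mt-Nd3 stood apart at 3.30 (3.11 to 3.49), with 156 CPM against 15.8 CPM, and mt-Nd6 was lowest at 0.82, with 15.4 CPM against 8.73 CPM. mt-Nd6 is encoded on the other strand of the mitochondrial genome from the remaining protein genes.

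Other gene lists gave a scale for these values. Cytosolic ribosomal proteins had a median log2 ratio of 1.24 over 82 genes and 30 small cytosolic proteins of other pathways 1.26, against 1.59 for respiratory subunits. Lists of mitochondrial proteins of other roles were lower: outer membrane and import proteins 0.92 (20 genes), mitochondrial ribosomal proteins 0.82 (78), TCA cycle enzymes 0.56 (17) and 37 assembly factors with other names 0.41. Glycolytic enzymes stood at 0.87 (16), from -0.12 for Pfkp to 1.68 for Gapdh. The mobile carrier cytochrome c, Cycs, was at 1.77 and Cyc1, its partner in complex III, at 1.28. The 15 regulators of mitochondrial biogenesis had a median of 0.03, with Tfb2m, a mitochondrial transcription factor, lowest at -0.32. Gene length differed between these lists, and the values here are not corrected for it. Median gene bodies were 7.46 kb for respiratory subunits, 3.27 kb for cytosolic ribosomal proteins and 4.08 kb for the small cytosolic proteins. They were 7.95 kb for outer membrane and import proteins and 7.90 kb for mitochondrial ribosomal proteins. Glycolytic enzymes had 15.4 kb, TCA cycle enzymes 24.7 kb and the regulators 28.9 kb.

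Ratios followed gene length. Over the 92 members, the Spearman correlation of the ratio with gene body length was -0.71, and over 17577 genes tested it was -0.30; genes of 1 pair of libraries are not independent. When all genes were divided into 10 equal groups by length, the 20 members in the shortest group (up to 4.02 kb) had a median of 2.06, against 0.66 for 1725 other genes of that group. In the next groups the members' medians were 1.65, 1.49, 1.10 and 0.72, against 0.59, 0.48, 0.36 and 0.32 for other genes. Members lay above other genes in each of these 5 groups, and over these groups both sets had lower medians in longer genes. The 5 groups of longer genes held 13 members in all and gave no steady order: the members' medians were 0.39 over 8 members, 0.49 for 1 and 0.34 for 1. In the group of 76.2 to 138.5 kb, 3 members had a median of -0.15, below that of other genes. Measured against the median of other genes of the same length group, 86 of 92 members lay above it, by a median of 0.93.

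After that subtraction the complexes still differed. Complex V stood 1.19 above its length groups, complex III 1.13, complex IV 1.01, complex I 0.92 and complex II 0.25. Over subunits alone the order changed: complex IV stood 1.20 above, complex V 1.19, complex III 1.13, complex I 1.01 and complex II 0.36. Assembly or supercomplex factors stood 0.19 above, with 8 of 13 above and 5 below, whereas 78 of 79 subunits lay above. For cytosolic ribosomal proteins the difference was 0.62, and for the small cytosolic proteins 0.67. On the same measure outer membrane and import proteins stood 0.51 above, glycolytic enzymes 0.47, mitochondrial ribosomal proteins 0.31 and TCA cycle enzymes 0.23. The assembly factors with other names stood 0.05 above and the regulators of mitochondrial biogenesis 0.0022. Cycs and Cyc1 had a median of 0.87. Sdha lay 0.01 above its length group and Atp5k 2.00 above.

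Length of the protein ran alongside. For the 91 members with an annotated coding sequence, the ratio's Spearman correlation with coding length was -0.68, against -0.26 over 14249 genes. The 23 members with at most 300 coding bases had a median log2 ratio of 2.11, against 0.85 for 252 other genes of that coding length; their gene bodies are also shorter, 3.83 kb against 7.35 kb at the median. The 15 members with 900 to 3000 coding bases had 0.72, against 0.23 for other genes. Coding length and gene body length are themselves correlated among members (0.48), and their parts cannot be told apart here. Uqcr11 encodes 56 residues and Atp5k 71, whereas Sdha encodes 664 and Ndufs1 727.

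**Figure D2:**
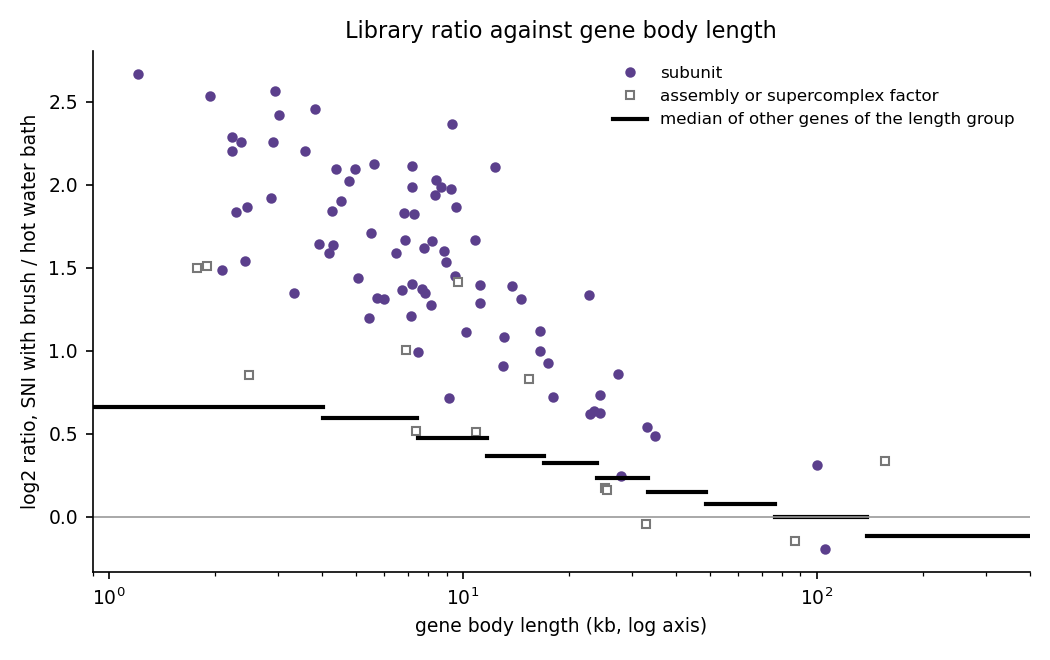
Log2 ratio, SNI with brush divided by hot water bath, for the 92 members against gene body length (log axis, kb), with black bars for the median of other genes in each of 10 length groups; the last group's bar is cut at the axis limit. Of the members, 86 lie above the bar of their group, and the members' values run down with length over the 5 groups of shorter genes.

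Transmitter class was taken from each nucleus: inhibitory or glutamatergic where at least 75% of at least 3 transmitter UMIs were of that kind, and serotonergic where Tph2 had at least 5 UMIs. The SNI with brush and hot water bath neurons held 104 and 56 inhibitory nuclei, 123 and 251 glutamatergic nuclei, 4 and 30 serotonergic nuclei, and 40 and 85 that were mixed or had few transmitter UMIs. The libraries thus differ in makeup. Within 10 points of the 75% limit lay 5 and 6 inhibitory and 24 and 23 glutamatergic nuclei.

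In each of the 4 classes the members' sum was the higher of the pair in SNI with brush. Inhibitory nuclei had 9550 CPM of members in SNI with brush and 3994 CPM in hot water bath, and the median log2 ratio over 91 members was 1.21. At least 1.5-fold higher were 77 of 91, beside 31.0% of genes tested in these nuclei, and 0 were lower, beside 8.15%. Glutamatergic nuclei had 7413 CPM against 3125 CPM and a median of 1.37. There 77 of 91 were higher, beside 27.3%, and 1 was lower, beside 8.44%: Cox7b2, with 11 UMIs against 37 and an interval from -2.04 to 0.08. Serotonergic nuclei had 6906 CPM against 2279 CPM and a median of 1.73 over 74 members, with only 4 nuclei in SNI with brush. Mixed nuclei had 6984 CPM against 3241 CPM and a median of 1.27.

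Some genes stood at the same end in both main classes. Atp5k and Atp5e were among the 3 highest in each, at 2.52 and 2.42 in inhibitory and 2.49 and 2.38 in glutamatergic nuclei. Ndufa3 was highest in inhibitory nuclei, with 80.1 CPM in SNI with brush and 7.06 CPM in hot water bath, a ratio of 3.46 (2.73 to 4.39) that rests on 14 hot water bath UMIs. In glutamatergic nuclei it had 51.4 CPM against 11.0 CPM, a ratio of 2.22 (1.90 to 2.55). The assembly factors Sdhaf3 and Ndufaf5 were among the 3 lowest in both classes, at -0.20 and -0.12 in inhibitory and 0.01 and -0.01 in glutamatergic nuclei.

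**Figure D3:**
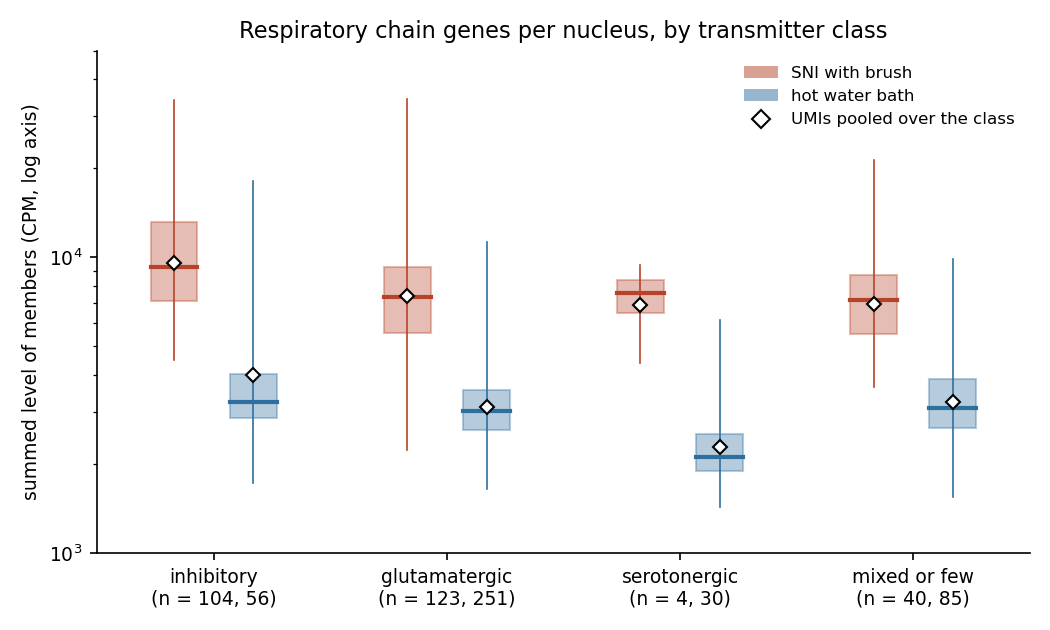
Summed level of the members per nucleus (CPM, log axis) by transmitter class, SNI with brush left of hot water bath in each pair: boxes run from the lower to the upper quartile with the median as a line, whiskers to the lowest and highest nucleus, and diamonds give pooled UMIs; n lists the nuclei of SNI with brush, then hot water bath. In inhibitory and glutamatergic nuclei the SNI with brush boxes lie wholly above those of hot water bath.

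Within each library, inhibitory nuclei carried slightly more of these transcripts than glutamatergic nuclei, far less than the libraries differed from each other. In SNI with brush the median log2 ratio of inhibitory over glutamatergic nuclei was 0.36, against 0.07 over all genes. Of 91 members, 9 were at least 1.5-fold higher, beside 9.17% of genes, and 0 lower, beside 6.15%, so the count of members past 1.5-fold is near the background. In hot water bath the median was 0.39, against 0.03 over all genes. There 23 of 91 were higher, beside 11.1%, and 1 was lower, beside 10.1%: Ndufa3, with 7.06 CPM against 11.0 CPM and an interval from -1.56 to 0.17. Ndufa3 pointed the other way in SNI with brush, at 0.64 (0.40 to 0.88). Cytosolic ribosomal proteins also had the higher sum in inhibitory nuclei: 6695 CPM against 5200 CPM in glutamatergic nuclei of SNI with brush, and 2903 CPM against 2151 CPM in those of hot water bath.

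Among members with at least 50 UMIs in the contrast, Ndufaf8 (0.77), Atp5k (0.67) and Ndufa5 (0.66) had the highest class ratios in SNI with brush and Atp5g3 (0.91), Ndufb10 (0.89) and Uqcrq (0.88) in hot water bath. Below that limit Cox7b2 had a higher ratio in SNI with brush, 1.65 (0.59 to 2.87), from 23 UMIs against 11. The mt- genes separated the classes further, with medians of 0.89 in SNI with brush and 1.68 in hot water bath. In nuclei of at most 0.5% mitochondrial UMIs these mt- medians were 0.66 in SNI with brush and 0.27 in hot water bath. For members, the class difference in hot water bath was 0.39 over all nuclei and 0.07 in those of at most 0.5% mitochondrial UMIs (50 against 242 nuclei). In SNI with brush it was 0.36 over all nuclei and 0.44 with that limit (65 against 96 nuclei). What lay behind these changes was not tested. Leaving serotonergic nuclei in their transmitter class gave 0.11 in hot water bath.

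**Figure D4:**
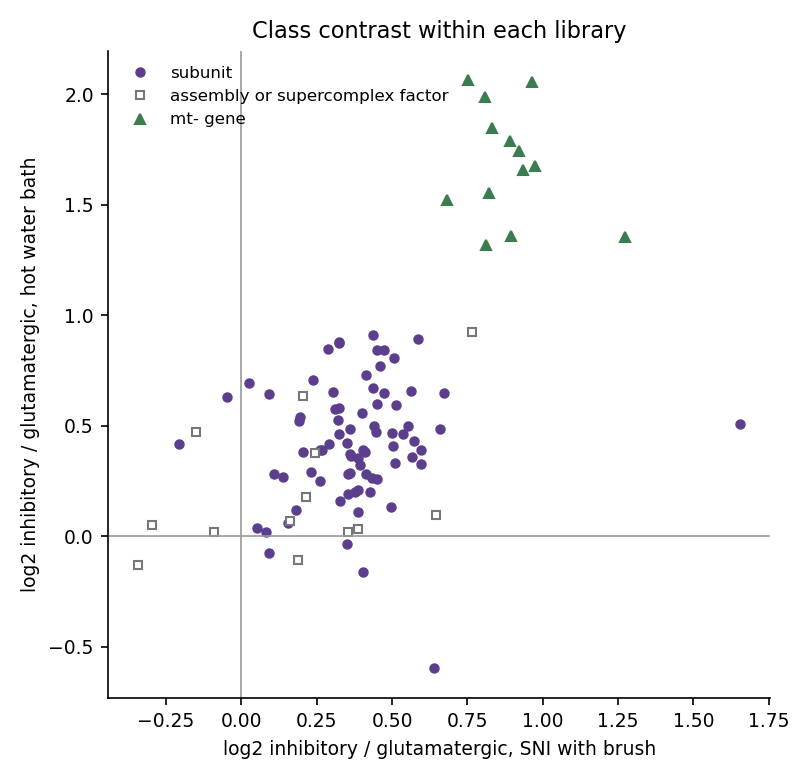
Log2 ratio of inhibitory over glutamatergic nuclei in the SNI with brush library (horizontal) and in the hot water bath library (vertical) for 91 members and 13 mt- genes. Most subunits lie to the right of and above 0 in a compact cloud, and the mt- genes lie above them; the square nearest the mt- genes is Ndufaf8, the point far right is Cox7b2 (23 UMIs against 11 in SNI with brush) and the lowest point is Ndufa3.

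Members were also higher in nuclei with a larger share of mitochondrial UMIs, in both libraries. Divided into terciles of that share, SNI with brush nuclei had 5611, 8031 and 11526 CPM of members from low to high, and hot water bath nuclei 2700, 2988 and 4032 CPM. The high over low tercile gave a median log2 ratio of 1.08 in SNI with brush, with 75 of 91 members at least 1.5-fold higher, beside 19.8% of genes, and 0 lower, beside 5.16%. In hot water bath it gave 0.69, with 53 of 91 higher, beside 10.7%, and 0 lower, beside 3.67%. Assembly or supercomplex factors moved little, with 489 and 542 CPM in the low and high tercile of SNI with brush and 366 and 389 CPM in those of hot water bath. Cytosolic ribosomal proteins ran with the members, with 3706 and 8742 CPM in the low and high tercile of SNI with brush and 1826 and 3148 CPM in those of hot water bath. Depth and makeup also differed between terciles. In SNI with brush the low and high tercile had medians of 44598 and 27330 UMIs and held 19 and 46 inhibitory nuclei, and in hot water bath 40844 and 33030 UMIs and 18 and 21 inhibitory nuclei. Their part in the difference was not tested. Against other genes of the same length group, 87 of 91 members lay above the median in SNI with brush and 82 of 91 in hot water bath.

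Nuclei grouped by the same limits of mitochondrial share also differed between libraries. With at most 0.1% mitochondrial UMIs, members had 4795 CPM in 36 SNI with brush nuclei and 2843 CPM in 275 hot water bath nuclei, a median log2 ratio of 0.86 beside 0.12 over all genes. Between 0.1 and 0.5% they had 7458 CPM in 157 nuclei against 3364 CPM in 127, a median of 1.28 beside 0.21. Above 0.5% they had 11651 CPM in 78 nuclei against 8099 CPM in 20, a median of 0.48 beside 0.09. In these 3 groups the mt- genes had medians of 0.33, 0.49 and -0.47, so the limits did not match the libraries in mitochondrial share. Depth and makeup differed between the libraries within groups. With at most 0.1%, median UMIs were 51378 in SNI with brush and 39539 in hot water bath, and above 0.5% they were 27313 and 31573.5. Inhibitory nuclei were 6 of 36 in SNI with brush and 34 of 275 in hot water bath with at most 0.1%. Between 0.1 and 0.5% they were 59 of 157 and 16 of 127. Above 0.5%, 39 of 78 SNI with brush nuclei and 6 of 20 hot water bath nuclei were inhibitory. The part of depth and makeup was not tested. The lowest tercile of SNI with brush (5611 CPM) was above the highest tercile of hot water bath (4032 CPM), and its mitochondrial share ran from 0.0168 to 0.173%, against 0.102 to 4.31%.

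**Figure D5:**
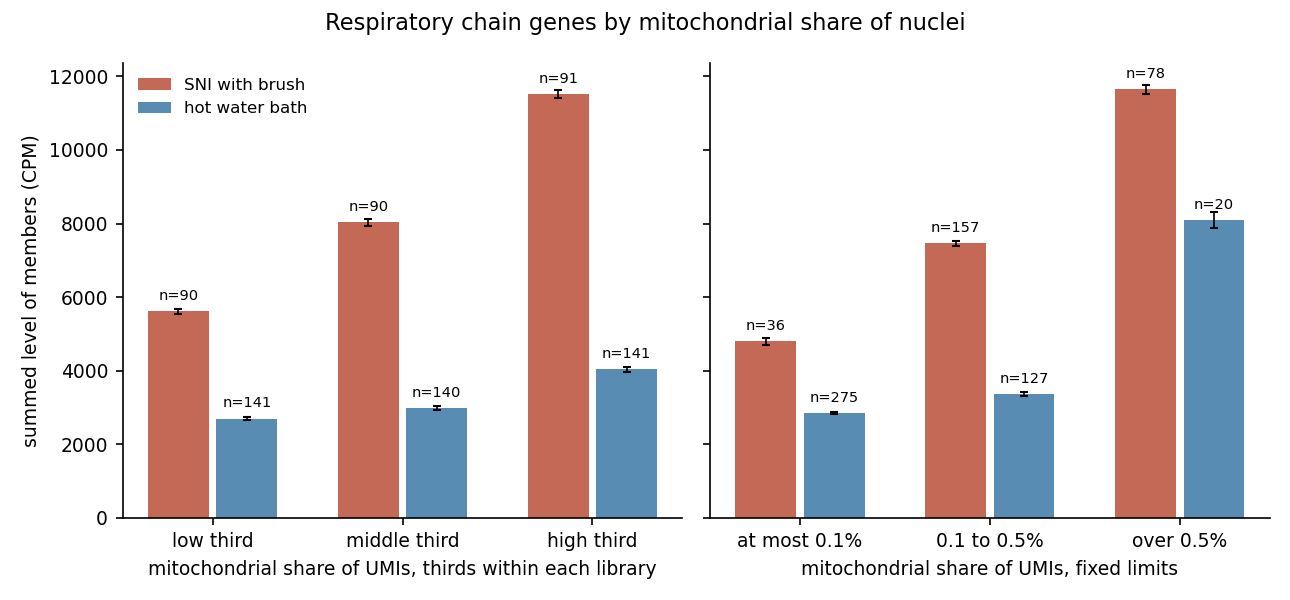
Summed level of the members (CPM) in nuclei grouped by mitochondrial share of UMIs, as terciles within each library (left) and by fixed limits (right), SNI with brush left of hot water bath in each pair; bars start at 0, error bars are exact 95% Poisson intervals and n is the number of nuclei. Levels run up with the share in both libraries, and the SNI with brush bar is the higher of each pair.

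Across nuclei, the sums of complexes I, III, IV and V were correlated, and those of complex II less so. The Spearman correlation between summed subunits of complexes I and IV was 0.92 over 271 SNI with brush nuclei and 0.68 over 422 hot water bath nuclei, and between complexes IV and V 0.91 and 0.63. Complex II correlated with complex I at 0.47 and 0.18. The members' sum correlated with the mitochondrial share at 0.64 and 0.43 and with UMIs per nucleus at -0.54 and -0.35. For assembly or supercomplex factors the correlation with mitochondrial share was 0.16 and 0.07. For cytosolic ribosomal proteins it was 0.63 and 0.48, and their correlation with UMIs per nucleus was -0.63 and -0.53, like or beyond the members' values. These correlations are descriptions: all sums of a nucleus share its depth, and complex II and the assembly factors rest on fewer UMIs, which lowers a correlation.

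Neighbouring annotation limits single values. In GENCODE vM21, 12 members overlap another annotated gene on the same strand, among them Ndufa13 (with Yjefn3), Cox4i1 (with Gm20388) and Ndufb8 (with Gm20538). UMIs in the overlap may not have been counted for the member. Respiratory subunits have many processed pseudogene copies, and the treatment of reads that match several places is not stated. Members with annotated pseudogenes of their name include Atp5k (1), the member with the highest ratio, Uqcrh (2) and Atp5l (2). Ndufb1-ps carries a pseudogene's symbol and is counted here as an accessory subunit row.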

How the data were processed

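Nuclear RNA of pooled hindbrain nuclei was measured in 1 library per treatment. Per the labels, the 10x 3' version 3 kit was used; Cell Ranger 5.0, Seurat and mm10 are named, per the submitters' processing notes. The authors deposited whole-number UMI counts per gene and nucleus, with 288 SNI with brush nuclei and 425 hot water bath nuclei (11298755 and 16344606 UMIs) of 850 and 723 listed barcodes; the filter and whether introns were counted are not given in the sources used here. No barcode was shared.

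Doublets were called with Scrublet in scanpy 1.11.5 (seed 0), and nuclei with more liver than neuron marker UMIs were left out. Python 3.11.15, numpy 2.4.6, pandas 2.3.3, scipy 1.17.1 and matplotlib 3.10.9 were used. Counts were summed over nuclei; ratios add 0.5 UMI to both sums, with exact conditional 95% intervals, and levels have exact Poisson and shares Clopper-Pearson intervals. All genes with at least 20 UMIs in a contrast form the background. No p-value was computed, since nuclei of 1 library are no replicates. Tested on simulated counts for the comparison of all neurons, the interval held the true ratio in 95.9% of 17323 genes drawn with no change and in 88.2 to 98.1% of the genes drawn at each of 5 fold changes (31 to 54 genes each). These were Poisson draws of the pooled sums, the model on which the interval is built, so a share near 95% checks the calculation only. The draws left out the spread between nuclei, and how the interval holds with it was not tested. Lengths come from GENCODE vM21. Named genes are the 3 highest and 3 lowest ratios per complex with at least 100 UMIs (50 and the 3 at each end in class contrasts), core subunits, paralog sets and mt- genes. Not every gene named by this rule is reported here. The members, lists and tests were chosen with earlier results of these data known.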

Additional observations from a re-analysis of the deposited data

Results flagged for a closer look

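The 15 liver-gene nuclei of the SNI with brush library, left out of every comparison, also held these transcripts: members summed to 8294 CPM (8009 to 8587) there, close to the 8081 CPM (8027 to 8134) of neurons of the same library, whose interval lies within theirs, and above the 3186 CPM of hot water bath neurons. The hot water bath library had 0 such nuclei. No member had a library ratio, or a class ratio, whose intervals lay on opposite sides of 0 in the 2 groups compared.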

How the results depend on the processing

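Of 117 alternative values, 90 stayed within 0.17 log2 (the median half-width of the members' intervals over all neurons) or within 1.5 times for counts, 27 moved by more and none changed direction. Some of the 90 could not move: for complexes III and V, the UMI limits and the choice of structural subunits left the gene list unchanged. The limit for counts could be passed only downward, so this tally does not measure stability. Members at least 1.5-fold higher numbered 67 at 2-fold, 74 with size-factor scaling and 80 without 3 nuclei rich in liver markers. Size-factor scaling, which moves every ratio by -0.20, gave medians of 1.25 for members, 1.52 for mt- genes and 1.20, 0.48, 1.53, 1.48 and 1.47 for complexes I to V, and places Sdhaf2 and Ndufaf6 below 0. Thinning to 9000 UMIs per nucleus gave 1.69 for members and 1.62 for complex I, and means over nuclei 1.57 for complex I. Nuclei of at most 0.5% mitochondrial UMIs gave 1.25 for mt- genes, 1.56 and 1.49 for complexes III and IV and 1.14 and 1.45 for members in glutamatergic and inhibitory nuclei. In inhibitory nuclei the median was 1.39 by means over nuclei and 1.51 with serotonergic nuclei left in their transmitter class. The class difference in hot water bath, 0.39, was 0.11 with those nuclei left in and 0.071 in nuclei of at most 0.5% mitochondrial UMIs. Nuclei of at most 0.1% gave 0.86 and those over 0.5% gave 0.48, alternatives chosen after seeing the data. Complex IV stood at 1.49 with no UMI filter, 1.86 for structural subunits and 1.48 with Ndufa4 in complex I. Other genes of like UMI total lowered the difference from length groups to 0.74. Fixed mitochondrial limits gave a log2 of high over low of 1.28 in SNI with brush and 1.51 in hot water bath, against 1.04 and 0.58 by terciles. The cause of these moves was not tested. No paired analysis was possible because each treatment has 1 library, and no replicate could be left out.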
